A study of Mus musculus with 4 samples.

Results

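Myh9 and Myh10 encode the heavy chains of nonmuscle myosin IIA and IIB, and the listed binding sites of the splicing proteins SRSF1 and SRSF2 in both genes were set side by side. Their peaks were chosen by position and strand on build mm9. Minus-strand peaks at chr15:77590000-77673000 were taken for Myh9 and plus-strand peaks at chr11:68505000-68631000 for Myh10. In all, 278 of 107319 listed peaks met this rule, 126 of 50983 in the SRSF1 list and 152 of 56336 in the SRSF2 list. Both genes were chosen with their peak numbers known, so those numbers are a description and carry no test.

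The peaks came from CLIP-seq, in which ultraviolet light links proteins to RNA and the RNA fragments bound to 1 precipitated protein are sequenced. The cells were MEFs, fibroblasts cultured from mouse embryos, in 2 lines whose SRSF1 or SRSF2 could be switched off with tetracycline. Both lines were grown without tetracycline, in medium with serum, and the same antibody against the HA tag was used for both. SRSF1 was precipitated from the SRSF1 line and SRSF2 from the SRSF2 line, 1 library each, so protein and cell line cannot be told apart and no value below has a replicate error. The other SRSF1 libraries of the series, from siRNA-treated cells, were not analysed here. RNA level was not measured in these libraries, so a gene's number of peaks cannot be told apart from the abundance of its RNA, and fewer cells with a transcript cannot be told from less RNA per cell.

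Nonmuscle myosin II is the motor that pulls on actin filaments in cells other than striated muscle. A pair of heavy chains, each with a motor head and a long coiled-coil tail, joins with essential and regulatory light chains, and the molecules assemble by their tails into short bipolar filaments. In fibroblasts these filaments give stress fibres their tension and drive migration and the division furrow. The IIA chain from Myh9 is known for fast turnover and work at the front of moving cells, the IIB chain from Myh10 for slower, longer-lasting force, and Myh10 carries cassette exons used in neurons. Both SRSF1 and SRSF2 belong to the SR family, whose members bind exonic RNA and help the splicing machinery choose exons. SRSF1 is known to favour purine-rich RNA and SRSF2 to accept both G-rich and C-rich sites.

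The mRNAs of the paralogs have nearly the same build. The principal GENCODE M21 transcript of each had 41 exons, more than 98.5% of 20988 protein-coding genes have, with 5880 coding nucleotides and 1960 codons in Myh9 and 5928 nucleotides and 1976 codons in Myh10. The coding sequence of Myh9 was richer in G and C, at 57.3% against 52.2%, where the median gene had 51.9%. Motif letters were counted on the sense strand of the coding sequence alone, since RNA is bound, and a match is a description, not a site. GGAGA, a purine motif tied to SRSF1, had 39 matches in Myh9 (6.63 per kb, above 96.2% of genes) and 18 in Myh10 (3.04 per kb, above 66.7%), and 86.7% of genes held at least 1. GAAGAA, the other purine motif, had 24 matches in Myh9 (4.08 per kb) and 30 in Myh10 (5.06 per kb), above 95.2% and 97.5% of genes, with at least 1 in 66.2% of genes. The G-rich form of the SRSF2 motif, GGNG, had 216 matches in Myh9 and 155 in Myh10, or 36.7 and 26.1 per kb against a median of 18.4, and the C-rich form, CCNG, had 130 and 99, or 22.1 and 16.7 per kb against a median of 21.6. At least 1 GGNG was found in 99.8% of genes and at least 1 CCNG in 99.9%. Each GGAGA also holds a GGNG, so those counts are not separate. Both mRNAs were thus dense in GAAGAA, while GGAGA and GGNG were denser in Myh9.

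The stretch of 60 coding nucleotides with most bases in the 2 purine motifs is shown for each gene, because it lets the purine-rich coding sequence of both be seen. Capitals mark GGAGA and GAAGAA. The Myh9 stretch covers coding nucleotides 3255 to 3314 and the Myh10 stretch 4321 to 4380, counted from the start codon, and each has 21 bases in motifs where the median stretch of its own gene has 0.
Myh9: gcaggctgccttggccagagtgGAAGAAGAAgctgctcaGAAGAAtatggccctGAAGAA
Myh10: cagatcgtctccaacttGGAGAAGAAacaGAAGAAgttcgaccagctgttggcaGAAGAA
These letters come from GENCODE transcripts on GRCm38. No peak was placed on them, because the peaks are on mm9 and no genome or annotation of that build was used here. For the same reason no exon, intron or untranslated region is given for any peak.

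The positions fit the gene names as far as they could be checked. The authors' lists give each gene 1 host unit, a numbered cluster with no gene name, and every peak in the window belonged to it. Myh9 peaks spanned 81.5 kb, from 77591040 to 77672540, where the RefSeq gene on GRCm38 is 81.6 kb long. Myh10 peaks spanned 120.9 kb, from 68505624 to 68626517, where the RefSeq gene is 124.7 kb long. Within 1 Mb the lists named Eif3d beside Myh9 and Aurkb, Vamp2, Cntrob, Fxr2 and Mpdu1 beside Myh10, and all 6 lie on the same side of the gene in the RefSeq table. The windows were isolated. The nearest same-strand peak outside was 73.2 kb from the Myh9 window (SRSF2, score 13) and 85.8 kb from the Myh10 window (SRSF2, score 16), and no peak of either list lay on the opposite strand inside them.

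Myh9 was among the units with most peaks of both proteins, while Myh10 had far fewer, spread over a longer gene. Myh9 held 107 SRSF1 and 114 SRSF2 peaks and ranked 3rd for SRSF1 and 5th for SRSF2 among 8738 genic host units. Myh10 held 19 SRSF1 and 38 SRSF2 peaks and ranked 441st and 125th. Per kb of window, Myh9 had 1.29 SRSF1 and 1.37 SRSF2 peaks and Myh10 had 0.151 and 0.302. The density in Myh9 was thus 8.55 times that in Myh10 for SRSF1 and 4.55 times for SRSF2. Over the stretch from first to last peak, the 2.71 peaks of both proteins per kb in Myh9 exceeded 95.7% of the 2945 units with at least 10 peaks and 1 kb of length, whereas the 0.471 per kb in Myh10 lay near their median of 0.522. The listed peaks covered 4.27% of the Myh9 stretch for SRSF1 and 3.92% for SRSF2, against 0.285% and 0.576% of the Myh10 stretch.

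SRSF1 and SRSF2 peaks were near balance in Myh9, and SRSF2 peaks were in the majority in Myh10. In Myh9 48.4% of the peaks were SRSF1 peaks (exact 95% interval 41.7 to 55.2), close to the 47.5% of both lists together. In Myh10 the SRSF1 share was 33.3% (21.4 to 47.1), an interval that ended just below the overall share. Such an interval below the overall share was found in 2.92% of the 2948 genic units with at least 10 peaks, and 11.8% of those units had a lower share than Myh10. The intervals cover counting error only, and those of the 2 genes overlapped. The Myh10 majority rested partly on the weakest peaks. The lowest SRSF2 score in Myh10 was 9 and the lowest SRSF1 score 10, and 12 SRSF2 peaks had a score under 10. With those left out, the share was 42.2% (27.7 to 57.9), which includes the overall share, and the difference from Myh9 at its own common lowest score, 11, was 4.51 percentage points in place of 15.1.

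**Figure D1:**
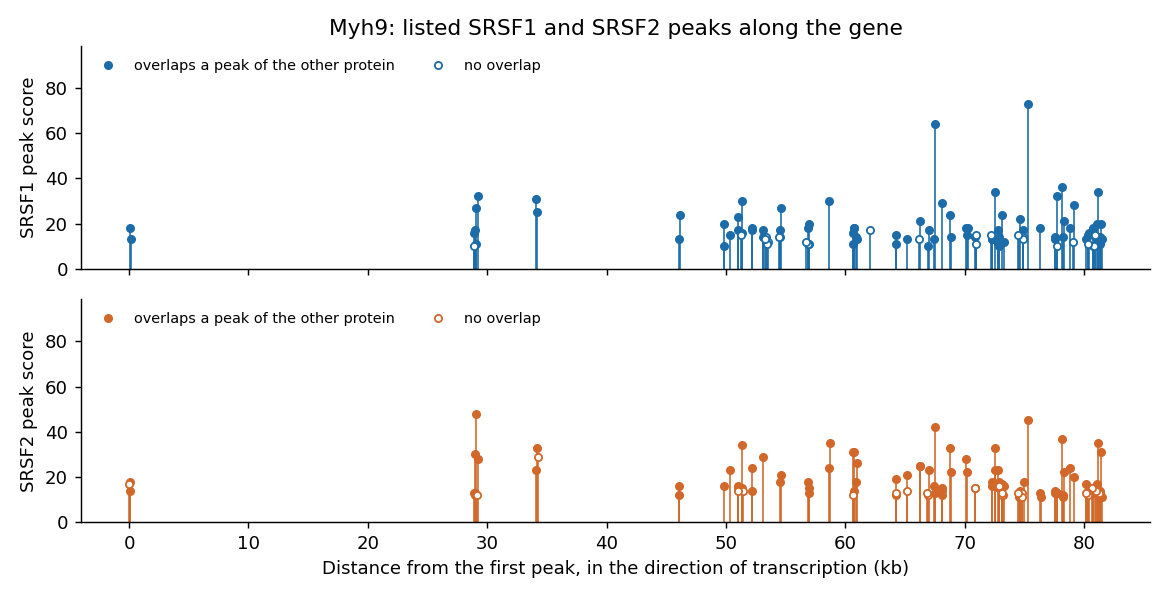
Score of each listed SRSF1 peak (upper) and SRSF2 peak (lower) in Myh9 against distance in kb from the first peak in the direction of transcription, with filled points for peaks that overlap a peak of the other protein. Most peaks lie beyond 46.1 kb, after empty stretches of 28.7 and 11.8 kb, and the SRSF1 peaks with scores of 73 and 64 stand above the rest.

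Along Myh9, both proteins left the same stretches empty and gathered toward the 3′ end. Since no exon was placed on mm9, whether peak positions follow the exons was not tested in either gene. Counted in the direction of transcription, 90.7% of SRSF1 peaks (97 of 107) and 88.6% of SRSF2 peaks (101 of 114) lay beyond the midpoint of the bound stretch, and 31.8% and 35.1% in the last of 10 equal segments of 8.15 kb. At the start stood 2 SRSF1 and 3 SRSF2 peaks within 144 nt (77672397 to 77672540). No peak of either protein was then listed for 28.7 kb. A compact group of 6 SRSF1 and 7 SRSF2 peaks followed within 330 nt (77643318 to 77643647), with the highest SRSF2 score of the gene, 48, at 77643404 to 77643487. Further empty stretches of 4.87 kb and 11.8 kb surrounded a group of 2 SRSF1 and 3 SRSF2 peaks at 77638307 to 77638449. After them, no stretch without a peak was longer than 3.67 kb.

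The 221 Myh9 peaks formed 31 groups when peaks no more than 300 nt apart were joined. Of these, 30 held both proteins, and their median length was 133 nt. The last group in the direction of transcription was the longest, at 1372 nt (77591040 to 77592411), and held 16 SRSF1 and 20 SRSF2 peaks. It contained the densest 1 kb of the gene, with 12 SRSF1 and 14 SRSF2 peaks at 77591046 to 77592045. A group of 1069 nt (77599266 to 77600334) came next in size, with 10 and 13 peaks. The single group without SRSF2 was 1 SRSF1 peak at 77610438 to 77610464 with a score of 17, which lay 1107 nt from the nearest SRSF2 midpoint. One group was uneven, with 6 SRSF1 peaks and 1 SRSF2 peak at 77619028 to 77619459, and was singled out after its values were seen.

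**Figure D2:**
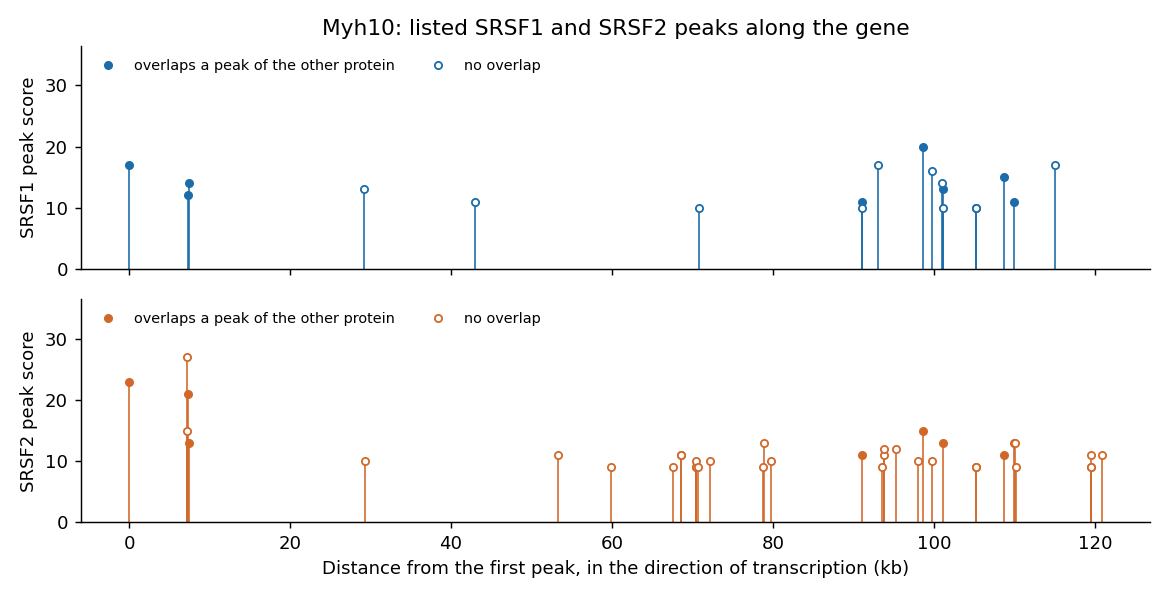
Score of each listed SRSF1 peak (upper) and SRSF2 peak (lower) in Myh10 against distance in kb from the first peak in the direction of transcription, with filled points for peaks that overlap a peak of the other protein. The highest SRSF2 scores, 27, 23 and 21, lie within the first 7.3 kb, and from 53.3 to 79.8 kb 1 SRSF1 peak stands among 13 SRSF2 peaks.

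Along Myh10, overlapping sites lay near the start and toward the 3′ end, with none between 7.44 and 91.0 kb from the first peak. The first site, at 68505636 to 68505659 for SRSF1 (score 17) and 68505624 to 68505667 for SRSF2 (score 23), was shared. A group of 2 SRSF1 and 4 SRSF2 peaks followed within 326 nt (68512754 to 68513079), the densest 1 kb of the gene, and held the highest SRSF2 score, 27, at 68512841 to 68512873. After it 21.7 kb and then 13.7 kb had no peak of either protein. In segments 5 to 7 of the 10 equal segments there were 13 SRSF2 peaks and 1 SRSF1 peak, and none of the 13 overlapped it. That stretch was singled out after its values were seen, and with SRSF2 scores of 9 left out it held 7 SRSF2 peaks. Segment 9 held 8 SRSF1 and 7 SRSF2 peaks, with the highest SRSF1 score of the gene, 20, at 68604206 to 68604239.

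Joined in the same way, the 57 Myh10 peaks formed 26 groups. Both proteins were present in 11 of them, SRSF2 alone in 12 and SRSF1 alone in 3. Single peaks made up 8 of the 12 SRSF2 groups and all 3 SRSF1 groups, so a group of one protein was most often 1 peak. The median group was 31.5 nt long. As in Myh9, most peaks lay beyond the midpoint of the stretch, 73.7% of SRSF1 peaks (14 of 19) and 78.9% of SRSF2 peaks (30 of 38).

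**Figure D3:**
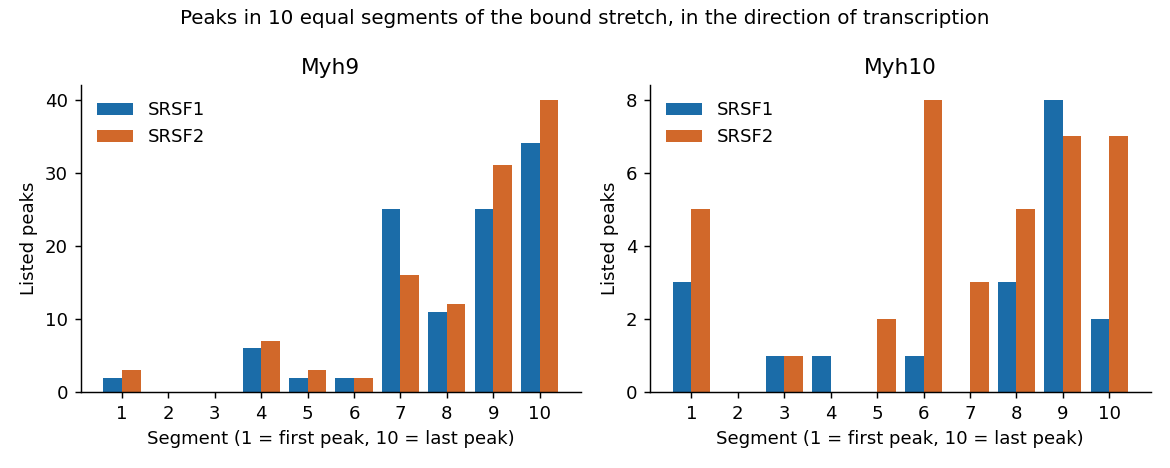
Number of listed SRSF1 and SRSF2 peaks (bars) in each of 10 equal segments between first and last peak, in the direction of transcription, in Myh9 (left, segments of 8.15 kb) and Myh10 (right, segments of 12.1 kb). Myh9 rises to 34 SRSF1 and 40 SRSF2 peaks in segment 10, and Myh10 has 8 SRSF2 peaks and 1 SRSF1 peak in segment 6.

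Most Myh9 peaks of either protein lay on a peak of the other, and most Myh10 peaks of SRSF2 did not. In Myh9, 84 of 107 SRSF1 peaks (78.5%, interval 69.5 to 85.9) shared at least 1 nt with an SRSF2 peak on the same strand, against 38.7% in the whole SRSF1 list. Of the Myh9 SRSF2 peaks, 89 of 114 (78.1%, 69.4 to 85.3) were overlapped by SRSF1, against 35.2% in the whole SRSF2 list. In Myh10 the counts were 9 of 19 SRSF1 peaks (47.4%, 24.4 to 71.1) and 9 of 38 SRSF2 peaks (23.7%, 11.4 to 40.2). The Myh10 intervals included the whole-list shares and the Myh9 intervals lay above them. The whole lists reach down to a score of 4, whereas no peak scored below 10 in Myh9 or below 9 in Myh10. Whole-list shares at matched scores are not given, so these comparisons are at unlike scores. Between the genes, the intervals overlapped for SRSF1 and were apart for SRSF2. The differences were 31.1 percentage points (5.72 to 55.2) and 54.4 (35.7 to 68.6). All these intervals treat peaks as independent, though many lie in groups, and cover counting error only. They are no test between genes chosen with their peak numbers known. With every peak set to 50 nt, or with midpoints within 50 nt, which is nearly the same rule, the SRSF1 difference was 17.9 points.

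**Figure D4:**
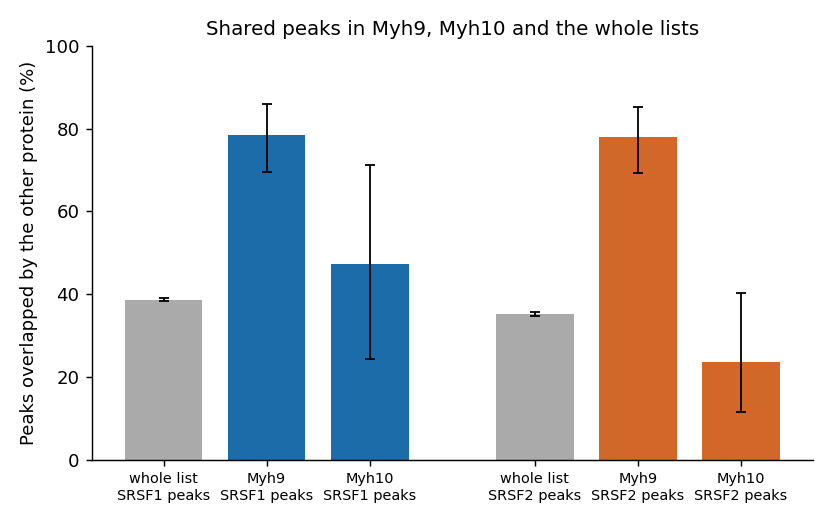
Percentage of listed SRSF1 peaks (left) and SRSF2 peaks (right) that share at least 1 nt with a peak of the other protein, for the whole list (grey), Myh9 and Myh10, with exact 95% binomial intervals as error bars. Myh9 stands at 78.5% and 78.1%, and Myh10 at 47.4% and 23.7%.

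Between Myh9 and Myh10, peak density and width moved with these shares, and their part in the difference was not tested. Myh9 peaks were wider, with a median of 28 nt for SRSF1 and 24 nt for SRSF2, against 20 and 19 nt in Myh10 and 19 nt in each whole list. Peaks of 60 nt or more made up 11.2% of the Myh9 SRSF1 peaks and 9.65% of its SRSF2 peaks, against 0.814% and 0.797% of the lists. Myh10 had none, but with 19 SRSF1 and 38 SRSF2 peaks it could hardly be told from the lists in this. Among 42 genic units with at least 100 peaks, the SRSF1 overlap ran from 31.6% to 83.3% with a median of 60.4%, and 2 units, Myh9 included, reached 78.5%. The SRSF2 overlap of those units ran from 31.7% to 78.8% with a median of 51.8%, and again 2 units reached the Myh9 value. Among 1128 units with at least 10 peaks of each protein, the SRSF1 overlap of Myh10 was close to the median of 47.1%, while its SRSF2 overlap exceeded that of 9.66% of units.

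Seen from SRSF2 peaks, the other protein was closer in Myh9 than in Myh10, while the intervals of the medians overlapped from SRSF1 peaks. In Myh9 the median distance from an SRSF1 peak to the nearest SRSF2 midpoint was 6.5 nt (interval 4.5 to 11.5), and 91.6% of SRSF1 peaks had one within 50 nt. From the SRSF2 side the median was 7.25 nt, with 96.5% within 50 nt and none beyond 71.5 nt. In Myh10 the medians were 10 nt from the SRSF1 side (3.5 to 56.5) and 369 nt from the SRSF2 side, where 14 of 38 SRSF2 peaks had no SRSF1 midpoint within 1000 nt. The interval of the latter median ran from 56.5 to 2184 nt, and that of the 7.25 nt in Myh9 from 5.5 to 12.5. The highest-scoring distant peaks in Myh10 were an SRSF1 peak at 68620703 to 68620731 (score 17, 4422 nt from SRSF2) and an SRSF2 peak at 68584464 to 68584487 (score 13, 8056 nt from SRSF1). Thus most Myh10 SRSF1 peaks had an SRSF2 peak near by, while many Myh10 SRSF2 peaks stood by themselves. The 38 SRSF2 peaks faced 19 SRSF1 peaks, and 12 of them scored below 10, the lowest SRSF1 score. With those 12 left out, 30.8% of the SRSF2 and 42.1% of the SRSF1 peaks were overlapped. The part of peak numbers and lowest scores in this contrast was not tested.

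The score is the authors' own value per peak, with no stated meaning in the labels or files. It was used to describe peaks within a list. Both lists' scores were set against each other only for the common lowest score above and in overlapping pairs. There they served to rank pairs by the smaller score and to describe how the scores of a pair went together. Myh9 scores ran from 10 to 73 for SRSF1 and from 11 to 48 for SRSF2, with a median of 15 in both, where the median of each list was 8. A score of 20 or more was held by 24.3% of the Myh9 SRSF1 peaks and 30.7% of its SRSF2 peaks, against 4.13% and 5.40% of the lists. Myh10 scores ran from 10 to 20 for SRSF1, with a median of 13, and from 9 to 27 for SRSF2, with a median of 11. In Myh10 1 SRSF1 and 3 SRSF2 peaks reached 20, or 5.26% and 7.89% of its peaks, not below the shares in the lists. The lowest score differs between host units of one list, from 4 up to 318 for SRSF1 and 416 for SRSF2, with a median of 6 in both. The value of 416 is also the highest score of the SRSF2 list, so the upper end tells little about thresholds. Units may have been held to different thresholds, which was not tested.

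Several of the highest-scoring Myh9 peaks of one protein lay on one of the highest of the other. The highest SRSF2 peak, with a score of 48 at 77643404 to 77643487, instead overlapped SRSF1 peaks with scores of 27, of rank 13 in the gene, and 11. The SRSF1 peak with the highest score, 73, at 77597166 to 77597282, contained the SRSF2 peak with the second highest, 45, at 77597189 to 77597268. The SRSF1 peak with a score of 64, at 77604982 to 77605059, contained the SRSF2 peak with a score of 42, at 77604996 to 77605039. Next came a site near the 3′ end at 77594297 to 77594419, with 36 for SRSF1 and 37 for an SRSF2 peak that ended at the same base. Peaks at 77591312 to 77591354 (34 for SRSF1, 35 for SRSF2) lay within the last group and differed by 1 nt at one end. The fifth pair joined an SRSF1 peak of score 34 at 77599942 to 77600035 to an SRSF2 peak of score 33 at 77599983 to 77600032. These 5 pairs have the highest smaller score among the 97 overlapping pairs of the gene, and choosing by the smaller score favours sites that are high for both.

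**Figure D5:**
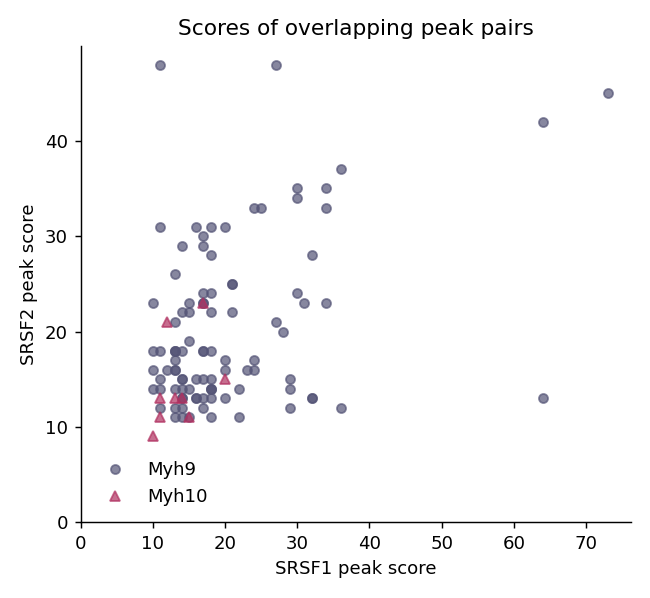
SRSF2 peak score against SRSF1 peak score for the 97 overlapping pairs in Myh9 (circles) and the 9 in Myh10 (triangles), where a peak that overlaps 2 peaks of the other list appears in 2 pairs. The pairs at 73 and 45 and at 64 and 42 lie apart at the upper right, and the Myh10 pairs lie at or below 20 for SRSF1 and 23 for SRSF2.

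Over all 97 Myh9 pairs the scores had a Spearman correlation of 0.227, and over the 9 Myh10 pairs 0.586. Pairs in one gene share their libraries and some share a peak, so these values are descriptions. Overlapped peaks had higher scores than the others in Myh9, with a median of 17 against 13 for both proteins, and were wider, at 30.5 against 17 nt for SRSF1 and 25 against 15 nt for SRSF2. In Myh10 the medians were 13 against 12 for SRSF1 and 13 against 10 for SRSF2. Midpoints lay within 10 nt in 66.0% of the Myh9 pairs and in all 9 of the Myh10 pairs. The SRSF2 midpoint was upstream of that of SRSF1 in 55 of the Myh9 pairs, downstream in 41 and level in 1, and in Myh10 it was upstream in 2 and downstream in 7. The median pair shared 20 nt in Myh9 and 16 nt in Myh10.

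In Myh10 the best shared site was the first one of the gene. The next pair by smaller score, at 68604206 to 68604239 (SRSF1, score 20) and 68604213 to 68604235 (SRSF2, score 15), joined the highest SRSF1 score to an SRSF2 score of rank 4. Shared sites at 68513055 to 68513079 (SRSF1, 14) and 68513056 to 68513077 (SRSF2, 13) lay in the dense group near the start. A pair at 68606695 to 68606712 (SRSF1, 13) and 68606697 to 68606722 (SRSF2, 13) lay 101.1 kb from the first peak. The fifth pair, 68512917 to 68512929 (SRSF1, 12) and 68512913 to 68512942 (SRSF2, 21), was again in the group near the start, so 3 of the 5 best pairs lay within the first 7.44 kb.

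Among 94 genes with a symbol and at least 30 peaks, those most like Myh9 in numbers of SRSF1 and SRSF2 peaks were Dync1h1, Zfhx4 and Col1a1. Likeness was the Euclidean distance over log2(peaks + 1) in the 2 libraries. Dync1h1, the heavy chain of another motor, cytoplasmic dynein, was nearest at a distance of 0.489. Its overlap was 67.1% for SRSF1 and 45.7% for SRSF2 in a stretch of 65.3 kb. With 2.94 peaks of both proteins per kb it was about as dense as Myh9, yet its SRSF2 overlap was lower. The homeobox gene Zfhx4 (distance 0.868) had an overlap of 41.2% and 36.8% in a stretch of 196.7 kb, and the collagen gene Col1a1 (distance 1.47) one of 72.7% and 78.8% in 15.6 kb. Nearest to Myh10 were Smg6, an endonuclease of nonsense-mediated decay (0.298, 23 SRSF1 and 42 SRSF2 peaks), the retromer subunit Vps35 (0.331, 19 and 30 peaks) and the leucyl-tRNA synthetase Lars (0.378, 24 and 33 peaks). Their SRSF2 peaks were overlapped in 31.0%, 56.7% and 45.5% of cases, so genes with like numbers of peaks differed widely in overlap.

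Of 115 genes of the actomyosin system, 15 had a host unit with a RefSeq name. Of these, 14 had peaks of both proteins, against 66.0% of all 2155 units with a symbol. The 15 units held 145 SRSF1 and 163 SRSF2 peaks and the 2155 units 8050 and 9008, so the 15 had more peaks per unit. The part of peak numbers in this contrast was not tested. Most units carry no name, Myh9 and Myh10 among them, so the remaining genes were not measured and none is shown to lack peaks. No class II heavy chain gene, of 14 listed, and no other myosin, of 24, had a named unit. Of the light chains, Myl12a and Myl12b, regulatory chains of nonmuscle myosin II, had 2 SRSF1 and 2 SRSF2 peaks each. They are close copies of each other, so the assignment of reads between them is uncertain. Among kinases and phosphatase subunits, Pak2, a kinase that acts downstream of Rac and Cdc42, had 13 of each.

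Of 33 actin filament genes, 9 had a named unit, with 101 SRSF1 and 122 SRSF2 peaks together. Flna, the crosslinker filamin A, had 45 and 51, Actn4, the crosslinker alpha-actinin 4, 18 and 19, Cttn, the branch-point protein cortactin, 13 and 12, and Actb, cytoplasmic beta-actin, 9 and 12. Cnn3, a calponin, had 6 and 11, and Tpm4, a tropomyosin, 3 and 7. Actin genes have many near-identical copies, which makes the assignment of their reads uncertain. Flna had the most peaks of these genes, 96 of both proteins, against 221 in Myh9. Fibroblast identity could be read from few names, since 2 of 10 fibroblast markers, Col1a1 and Postn, had a named unit. Of the markers of other cells, Krt19 of epithelium had 1 SRSF1 peak, and no named unit was found for the 11 of muscle, 4 of macrophages, 3 of endothelium and 3 of neurons.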

How the data were processed

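The authors deposited 1 BED list of peaks per library, on mm9 per the submitters' processing notes. Aligner, peak caller and cutoff: not given in the sources used here. Each deposited score was a whole number, 4 or more, whose meaning no header gives. Peak numbers in the names have gaps: of the numbers up to the highest, 28.2% (SRSF1) and 23.0% (SRSF2) were missing in Myh9 and 24% and 7.32% in Myh10, so some numbered peaks were not listed. Read depth was unknown, and the number of peaks is no depth.

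Coordinates are printed 1-based. Overlap meant at least 1 nt on the same strand, and the function was tested on simulated peaks and against bedtools 2.31.1, which gave the same 19724 overlapped SRSF1 peaks. Distances are between midpoints. Shares carry exact (Clopper-Pearson) 95% intervals (scipy 1.17.1), which cover counting error only, and intervals of differences combine those of both shares. Intervals of medians come from the ordered values. With 1 library per protein no p-value was computed. Symbols came from a RefSeq table of GRCm38.p6, used for names, gene lengths and neighbours, and 2155 of 2169 RefSeq units matched. Exon numbers and coding sequences came from GENCODE M21, taking the principal transcript with the longest coding sequence per gene and coding sequences of at least 300 nt.

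Members and gene lists were chosen with earlier results of these data known. Within each gene the 5 peaks of each protein with the highest score, the 5 overlapping pairs with the highest smaller score, the highest-scoring peak over 500 nt from the other protein and the densest 1 kb were named. Of the actomyosin list, the rule named every gene with at least 10 peaks and, in each group, up to 4 genes with the most peaks. One group of that list is not reported here. Alternatives changed the overlap rule, peak width, merging, host unit, score minimum and length.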

Additional observations from a re-analysis of the deposited data

How the results depend on the processing

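Of 110 alternative values of shares, distances, scores and densities, 99 stayed within the counting interval of the value reported. The planned minimum at the median score of each list left out no peak of either gene, and the restriction to 1 host unit none either. These 2 alternatives thus tested nothing here. Their unchanged values are among the 99, so 99 of 110 overstates how far the results held. Setting peaks to 50 nt and taking midpoints within 50 nt are nearly the same rule and gave equal values. Both are counted in the 110, though they are not separate alternatives. With all peaks resized to 50 nt, or with midpoints up to 50 nt apart, the share of peaks met by the other protein rose to 91.6% (SRSF1) and 96.5% (SRSF2) in Myh9 and to 73.7% (SRSF1) in Myh10. Merging peaks within 10 nt gave an SRSF2 overlap of 86.3%, a median SRSF1 distance of 12.5 nt and 0.988 SRSF1 and 0.964 SRSF2 peaks per kb in Myh9. The lower densities follow from the merging itself, and for the overlap and the distance the cause was not tested. The common lowest score of both lists, chosen after seeing the data, left 0.206 SRSF2 peaks per kb in Myh10. The difference between the genes in overlap ran from 17.9 to 37.9 percentage points for SRSF1 and from 46.4 to 67.5 for SRSF2. The groups numbered 42 and 26 in Myh9 and 29 and 24 in Myh10 with gaps of 100 and 500 nt, also chosen after seeing the data. No paired analysis was possible because each protein has 1 library here. Unknown depth limits every count, and with 19 SRSF1 peaks in Myh10 the overlap share there has an interval of 24.4 to 71.1%.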
